A study of Homo sapiens with 6 samples.

Results

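Transcripts of 10 transcription factor genes were examined in AsPC-1 cells that carried additional MMP28. They were MYC and its relative MYCL, the Krüppel-like factor genes KLF3, KLF4, KLF5, KLF6, KLF9 and KLF10, and the epithelial ETS factor genes ELF3 and EHF. The members were taken by gene symbol, and all 10 were found among the 58735 genes of the deposited table. AsPC-1 is an established human pancreatic cancer cell line. The Vector group (n = 3) was infected with an empty lentivirus, and the OE-MMP28 group (n = 3) with a lentivirus that held the cDNA of MMP28, a secreted matrix metalloproteinase. According to the study's methods the lentiviral construct also held GFP and a puromycin resistance gene, and infected cells were selected with puromycin into stable lines. The promoter that drives the insert is not given in the sources used here. The study states in general that its cell experiments were repeated independently. Neither its sequencing methods nor the labels say whether the 3 sequenced samples of a group came from separate cultures, so p-values measure the spread between these samples, which may be technical.

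MYC encodes a basic helix-loop-helix leucine zipper protein that binds the E-box CACGTG as a dimer with MAX and raises ribosome production, nucleotide synthesis and cell cycle entry. MAX also pairs with the MXD proteins, MXI1, MNT and MGA, which occupy the same E-boxes and repress them. Krüppel-like factors carry zinc fingers that bind GC-rich and CACCC elements, and some activate while others repress. KLF4 is known for growth arrest and differentiation in the gut lining, KLF5 for growth of the proliferating epithelial compartment, and KLF6 as a growth suppressor. ELF3 and EHF belong to the ETS subfamily that is expressed mainly in epithelia.

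Total counts per library ranged from 13633249 to 16691458, and the 10 members together took between 0.160% and 0.205% of them. MMP28 had 226 to 355 counts in the Vector libraries and 591 to 725 in the OE-MMP28 libraries, without overlap. Its level was 7.57 ± 2.11 FPKM (SD, n = 3) against 14 ± 1.01 FPKM (SD, n = 3), where FPKM is a level scaled to gene length and library size. The log2 fold change of MMP28 was 0.90 (SE 0.19), or 1.87-fold, which is under the absolute log2 fold change of 1 that the study sets. Mitochondrial genes took between 11.9% and 14.8% of a Vector library and between 8.80% and 11.9% of an OE-MMP28 library. The 6 epithelial markers examined (EPCAM, KRT7, KRT8, KRT18, KRT19, CDH1) summed to between 2579 and 4305 FPKM in a library. None of the 6 leukocyte markers exceeded 13 counts. They summed to 0.0930 to 0.229 FPKM in the Vector group and 0.319 to 0.479 FPKM in the OE-MMP28 group, without overlap. Of the 6 fibroblast markers LUM alone exceeded 11 counts, and the list summed to 33.9 to 40.9 FPKM in the Vector group and 39.3 to 57.0 FPKM in the OE-MMP28 group. The 4 endothelial markers summed to at most 0.293 FPKM, with KDR at 0 counts in every library. PECAM1 among them had a higher level in the OE-MMP28 group, from 8 counts over the Vector libraries and 64 over the OE-MMP28 libraries. The part of these other markers in the results was not tested.

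Levels were compared between genes on the FPKM scale, which corrects for gene length. In the Vector group KLF5 had the highest level at 104 ± 4.52 FPKM (SD, n = 3). KLF6 followed at 95.1 ± 5.70, MYC at 62.5 ± 11.5, ELF3 at 44.8 ± 11.1, EHF at 28.6 ± 1.12, KLF3 at 27.9 ± 0.502, KLF10 at 21.2 ± 2.96 and KLF4 at 19.3 ± 3.88 FPKM. All 8 lay at or above the 93.0 percentile of the genes with a count in any library. Neighbours in this order whose libraries overlapped were KLF5 with KLF6, MYC with ELF3, EHF with KLF3, and KLF10 with KLF4. In the OE-MMP28 group the order was KLF5, MYC, KLF6, ELF3, EHF, KLF4, KLF10 and KLF3, and only the step from KLF6 to ELF3 among these 8 was free of overlap. KLF6 thus moved from above MYC, without overlap, to a level that overlapped that of MYC, and KLF4 and KLF10 moved from below KLF3, without overlap, to levels that overlapped it.

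KLF9 and MYCL were close to silent. KLF9, which glucocorticoid and thyroid hormones induce in many tissues, had 4, 8 and 9 counts in the Vector libraries and 10, 3 and 10 in the OE-MMP28 libraries. MYCL had 2, 2 and 5 counts against 0, 2 and 5. These 2 genes did not pass the filter on low counts and were not tested, and a difference between the groups was not detectable at this depth, where 3 counts stand for 0.180 to 0.220 CPM (counts scaled to library size). The other 8 members were tested.

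**Figure D1:**
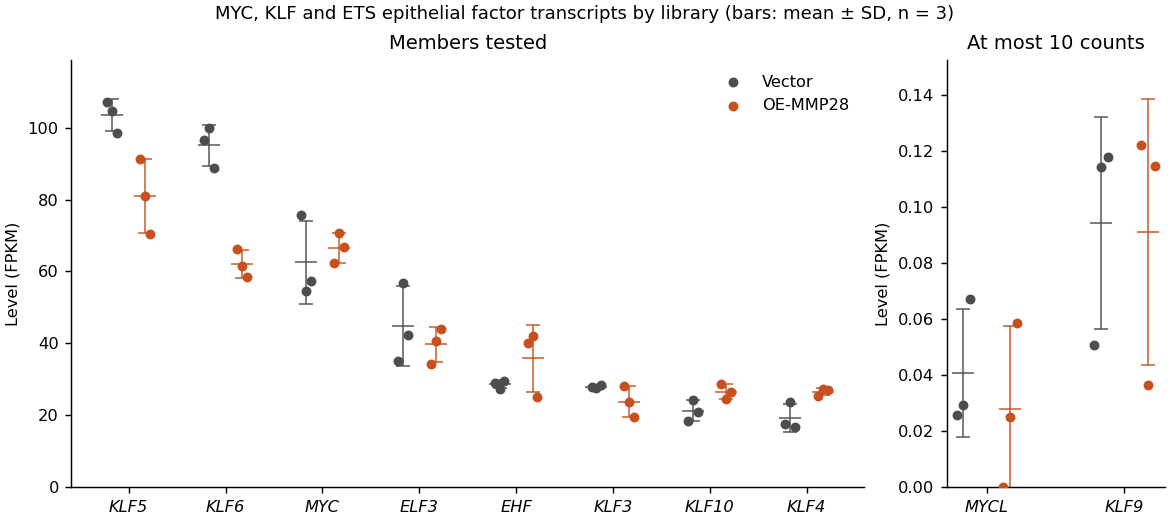
FPKM of the 10 members in each library (vertical axis, linear), with Vector in grey and OE-MMP28 in orange. Points are libraries and bars are mean ± SD (n = 3). The groups do not overlap for KLF5, KLF6, KLF10 and KLF4, and the right panel shows, on its own scale cut at 0, KLF9 and MYCL, which had at most 10 counts in any library.

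Of the 8 members tested, 1 rose and 1 fell in the OE-MMP28 group, at an adjusted p under 0.05 in the quasi-likelihood test of edgeR, adjusted by the Benjamini-Hochberg procedure over all 15319 genes tested. KLF4 rose and KLF6 fell. In these bulk libraries, a change in transcript per cell and a change in the share of cells that express a gene cannot be told apart. The members called were 25% of those tested, beside 23.4% of all genes tested (11.7% higher and 11.6% lower). Groups without overlap in FPKM were found for 4 of the 8 members (KLF4, KLF5, KLF6 and KLF10), and for 38.1% of all genes tested. The shares of the members were near those of all genes. No member met the thresholds the study states, p under 0.05 (read as unadjusted) with an absolute log2 fold change over 1. Of all genes tested, 8.5% met them, or 1302 genes. The study reports fewer genes at its thresholds, and the reason for this difference was not tested. The median log2 fold change of the 8 members was -0.029, beside 0.014 over all genes tested.

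MYC (ENSG00000136997, chromosome 8, 127735434 to 127741434, plus strand) did not pass the test of a difference between the groups. Replicates 1, 2 and 3 of the Vector group had 75.7, 54.5 and 57.3 FPKM, and those of the OE-MMP28 group had 62.3, 70.7 and 66.8 FPKM. The Vector libraries included both the highest and the lowest of the 6 values, so the groups overlapped. The log2 fold change was 0.10 (SE 0.15, 95% interval from -0.22 to 0.43, adjusted p = 0.672). Each library held between 2211 and 3475 counts of MYC, and the interval allowed neither a rise nor a fall past the study's fold threshold. With a library left out, the log2 fold change lay between 0.013 without Vector replicate 2 (adjusted p = 0.970) and 0.27 without Vector replicate 1 (adjusted p = 0.264). It was 0.045 without OE-MMP28 replicate 2 and 0.046 without Vector replicate 3. The 64 tested genes within 10 Mb of MYC had a median log2 fold change of -0.27, with 14 lower and 3 higher among them. With an offset for this local median, the value of MYC was 0.37 (adjusted p = 0.111).

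The other genes of the MAX network were examined because most of them encode partners of MAX, as MYC does. MLX and its partners MLXIP and MLXIPL belong to the parallel MLX branch and were counted with them. Of 11 genes on this list, 10 were tested, and 4 fell while none rose. These 4 were MXD1, MXI1, MXD4 and MLXIPL, and all 4 were past the study's fold threshold. The share called was 40%, beside 23.4% of all genes tested (11.6% lower), and the median of the list was -0.11.

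MXD1, which encodes a repressive partner of MAX linked to differentiation, had 11.9, 11.2 and 9.69 FPKM in the Vector libraries and 4.63, 3.77 and 3.88 FPKM in the OE-MMP28 libraries. It was 2.66-fold lower, with a log2 fold change of -1.41 (SE 0.16, adjusted p = 4.26e-06). MXI1, a further MAX partner that represses, had 15.9, 20.3 and 19.6 FPKM against 7.91, 7.52 and 6.45 FPKM. Its log2 fold change was -1.34 (SE 0.16, adjusted p = 7.28e-06). MXD4 had 6.64, 7.77 and 6.94 FPKM against 2.39, 3.89 and 3.62 FPKM, and its log2 fold change was -1.09 (SE 0.19, adjusted p = 0.000316). The highest OE-MMP28 library lay below the lowest Vector library for each of these 3 repressor genes. MLXIPL, which encodes the glucose-responsive factor ChREBP and pairs with MLX rather than MAX, had 2.04, 5.10 and 3.55 FPKM against 0.840, 1.47 and 0.802 FPKM. Its log2 fold change was -1.77 (SE 0.29, adjusted p = 0.000248).

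Each of these 4 calls held in all 18 alternative fits. The genes within 10 Mb of MXD1 had a median log2 fold change of -0.47 and those of MXI1 one of -0.43, whereas the medians around MXD4 and MLXIPL were -0.027 and -0.16. When these local medians were entered as an offset, the log2 fold changes were -0.94 for MXD1, -0.91 for MXI1, -1.07 for MXD4 and -1.61 for MLXIPL, with adjusted p-values from 0.000446 to 0.000803. MAX, MNT, MGA and MXD3 were chosen for description after their values were seen. MAX had 11.6, 9.39 and 10.8 FPKM against 13.8, 12.1 and 14.5 FPKM, without overlap (adjusted p = 0.102). The other repressor genes MNT, MGA and MXD3 had log2 fold changes of -0.19, 0.0048 and -0.025, with adjusted p-values from 0.435 to 0.988. MYCN had 0 counts in the Vector libraries and at most 3 in an OE-MMP28 library, and was not tested.

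Summed over the 6 genes of MAX-binding repressors (MXD1, MXI1, MXD3, MXD4, MNT and MGA), the level was 46.7 ± 2.37 FPKM in the Vector group and 24.2 ± 0.920 FPKM in the OE-MMP28 group (SD, n = 3). MYC therefore amounted to 1.70, 1.11 and 1.23 times this sum in Vector replicates 1, 2 and 3. In OE-MMP28 replicates 1, 2 and 3 it amounted to 2.61, 2.81 and 2.86 times the sum. The groups did not overlap in this ratio, while the ratio of MYC to MAX overlapped, at 5.89 ± 0.630 against 4.98 ± 0.746 (SD, n = 3). Both ratios were set up after the values were seen and were not tested.

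**Figure D2:**
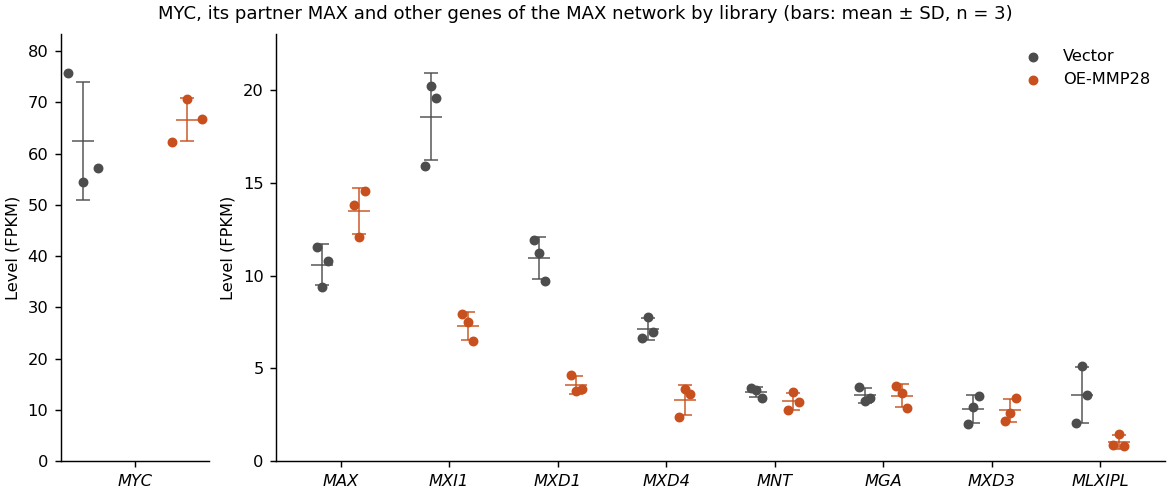
FPKM of MYC (left, own scale) and of other genes of the MAX network (right), with both vertical axes linear, Vector in grey and OE-MMP28 in orange. Points are libraries and bars are mean ± SD (n = 3). The groups overlap for MYC and are apart for MXI1, MXD1, MXD4 and MLXIPL, whose OE-MMP28 libraries all lie below the Vector libraries. They are also apart for MAX, which was not called and whose OE-MMP28 libraries all lie above the Vector libraries.

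Among 9 genes that act on the MYC protein or work with it, 2 rose and none fell, with a median log2 fold change of 0.33. The share called was 22.2%, beside 23.4% of all genes tested (11.7% higher). SKP2, a ubiquitin ligase subunit, had a log2 fold change of 0.50 (SE 0.17, adjusted p = 0.0420), and USP28, a deubiquitinase, one of 0.50 (SE 0.16, adjusted p = 0.0268). Neither call was stable. Without Vector replicate 2, without Vector replicate 3 or without OE-MMP28 replicate 2 no gene of the list was called, and without Vector replicate 1 there was 1 call. Without OE-MMP28 replicate 1 both were lost, while other genes of the list brought the count to 2. The genes within 10 Mb of USP28 had a median log2 fold change of 0.51, and with the local-median offset its value was -0.014 (adjusted p = 0.966).

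The list of 30 genes that MYC is known to activate was fully tested. Of these, 7 rose and none fell, which is 23.3% called, beside 23.4% of all genes tested in either direction. By direction, 11.7% of all genes tested were called higher and 11.6% lower. The log2 fold change was positive for 24 of the 30 genes and negative for 6, with a median of 0.28 beside 0.014 over all genes. The 5 largest rises were those of UTP20, NME1, EIF4E, PES1 and NOP16. UTP20, PES1 and NOP16 serve ribosome assembly, NME1 encodes a nucleoside diphosphate kinase and EIF4E the cap-binding translation factor. UTP20 had 6.47 ± 1.49 FPKM against 10.3 ± 1.81 FPKM (SD, n = 3), which is 0.69 on the log2 scale (adjusted p = 0.00780). The other 4 had log2 fold changes between 0.56 and 0.62, with adjusted p-values from 0.0104 to 0.0308. Single libraries moved the count of this list strongly. It was 12 without Vector replicate 1, 3 without Vector replicate 2, 2 without Vector replicate 3, 2 without OE-MMP28 replicate 2 and 4 without OE-MMP28 replicate 3.

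Genes that MYC is known to repress moved in both directions. Of 6, all tested, 3 fell and 2 rose, which is 83.3%, beside 23.4% of all genes tested, with a median log2 fold change of -0.30. The list is short and, like the others, was chosen with earlier results of these data known. NDRG1, a stress and differentiation gene, fell from 39.1 ± 13.6 FPKM to 12.8 ± 2.67 FPKM (SD, n = 3), or by 1.60 on the log2 scale (adjusted p = 1.9e-05). The cyclin-dependent kinase inhibitor genes CDKN1B and CDKN2B fell, by 0.67 and 0.51 on the log2 scale. CDKN1A, which encodes the inhibitor p21, rose with a log2 fold change of 0.66, and GADD45A, a DNA damage response gene, rose with one of 0.52. The calls of NDRG1 and CDKN1B held in all 18 alternative fits, that of CDKN2B in 16, that of CDKN1A in 13 and that of GADD45A in 7. The count of 5 was 2 without Vector replicate 3 or without OE-MMP28 replicate 2, and 3 without OE-MMP28 replicate 3.

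KLF6 (ENSG00000067082, chromosome 10, 3775996 to 3785281, minus strand) showed the strongest change among the members tested. Replicates 1, 2 and 3 of the Vector group had 96.7, 99.9 and 88.8 FPKM, and those of the OE-MMP28 group had 66.3, 61.6 and 58.4 FPKM. All OE-MMP28 libraries lay below all Vector libraries. The level was 1.52-fold lower, with a log2 fold change of -0.61 (SE 0.14, adjusted p = 0.00365), from between 5991 and 9072 counts per library. Leaving out any library kept the call, with log2 fold changes from -0.66 to -0.57.

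The genes around KLF6 were lower as well. The 56 tested genes within 10 Mb had a median log2 fold change of -0.53, and 26 of them fell while 1 rose. Only 1.45% of all genes tested had a lower local median. With an offset for the local median, the log2 fold change of KLF6 was -0.074 (adjusted p = 0.769), so that its fall was about as large as that of its neighbourhood.

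KLF4 (ENSG00000136826, chromosome 9, 107484852 to 107490482, minus strand) had 17.5, 23.8 and 16.7 FPKM in the Vector libraries and 25.3, 27.2 and 27.1 FPKM in the OE-MMP28 libraries. The OE-MMP28 libraries lay above the Vector libraries, of which replicate 2 came closest. The level was 1.39-fold higher, with a log2 fold change of 0.47 (SE 0.16, adjusted p = 0.0378). This call was close to the threshold. It held in 8 of 18 alternative fits, and of the 6 fits that left out a library only the one without Vector replicate 2 kept it, with a log2 fold change of 0.65 (adjusted p = 0.00613). Without Vector replicate 1 or 3, or without OE-MMP28 replicate 1, 2 or 3, the adjusted p was 0.105, 0.213, 0.0521, 0.160 and 0.0890. The 76 genes around KLF4 had a median log2 fold change of 0.11, and with the local-median offset the value was 0.36 (adjusted p = 0.141).

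Upstream sequence is shown for KLF4 and KLF6, the 2 members called, because both hold the E-box CACGTG that MYC and the MXD proteins bind. RefSeq promoter sequences (GRCh38.p14) were matched for 7 of the 10 members, all but MYC, KLF3 and KLF10. Each was searched over 250 bases before the RefSeq start on both strands, for the E-box, which reads the same on both, and for the 3 further motifs spelled out with their counts here. CACGTG was found in 2 of the 7 and in 6.34% of 35116 promoters of the same length. Those 35116 were not matched for base content, and enrichment was not tested. The share of G and C was 69.2% for KLF4 and 72.4% for KLF6, and ranged from 32.4% for KLF9 to 74.4% for MYCL. GGGCGG, a GC box, was found 4 times in KLF4 and 2 times in each of KLF6 and MYCL, and in 42.6% of all promoters. CACCC was found 4 times in EHF and 1 time in each of KLF5 and ELF3, and in 54.7% of all promoters. CCGGAA, an ETS element, was in none of the 7 and in 14.5% of all promoters. The sequences read 5′ to 3′ on the minus strand, and capitals mark CACGTG. The KLF4 window, chr9:107489770-107490019, lies in an intron of a longer KLF4 transcript and in no exon of GENCODE release 29, and its E-box starts 157 bases before the RefSeq start. The KLF6 window is shown outside annotated exons, as chr10:3785282-3785459, and its E-box starts 97 bases before the RefSeq start. The motif counts and the share of G and C given for KLF6 cover its full 250 bases, part of which is not shown. A match of letters does not show that the site is bound.
KLF4: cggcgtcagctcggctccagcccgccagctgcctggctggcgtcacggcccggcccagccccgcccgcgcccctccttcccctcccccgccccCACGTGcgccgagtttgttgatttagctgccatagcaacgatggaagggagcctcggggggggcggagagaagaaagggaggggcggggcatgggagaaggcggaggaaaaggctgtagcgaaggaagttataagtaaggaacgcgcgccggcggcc
KLF6: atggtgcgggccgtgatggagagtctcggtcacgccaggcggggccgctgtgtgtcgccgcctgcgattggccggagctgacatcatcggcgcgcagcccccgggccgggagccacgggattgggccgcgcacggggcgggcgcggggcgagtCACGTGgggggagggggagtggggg

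KLF5 (ENSG00000102554, chromosome 13, 73054976 to 73077542, plus strand) had 107, 105 and 98.5 FPKM in the Vector libraries and 91.3, 81.1 and 70.5 FPKM in the OE-MMP28 libraries. The groups did not overlap, yet the difference did not pass the test, with a log2 fold change of -0.34 (SE 0.14, adjusted p = 0.0872). Of 18 alternative fits, 16 did not pass it either. Those that did were the fit without OE-MMP28 replicate 1, at -0.45 (adjusted p = 0.0408), and the fit with upper-quartile scaling, at -0.39 (adjusted p = 0.0483). The value was -0.26 without OE-MMP28 replicate 3 (adjusted p = 0.246) and -0.24 with the local-median offset (adjusted p = 0.272).

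KLF10 (ENSG00000155090, chromosome 8, 102648779 to 102655902, minus strand), an early response gene of TGF-beta signaling, had 18.4, 24.3 and 20.9 FPKM in the Vector libraries. It had 28.6, 24.4 and 26.5 FPKM in the OE-MMP28 libraries, so the groups were separated by the small gap between Vector replicate 2 and OE-MMP28 replicate 2. The log2 fold change was 0.33 (SE 0.15, adjusted p = 0.120). The 73 genes around KLF10 had a median log2 fold change of -0.23, opposite in sign to that of KLF10. With the local-median offset its log2 fold change was 0.57, and the adjusted p of 0.0156 passed the threshold. This was the only 1 of 18 alternative fits that passed. With a library left out, the adjusted p was between 0.0619 and 0.332.

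KLF3 (ENSG00000109787, chromosome 4, 38664196 to 38701042, plus strand), which encodes a repressor that recruits CtBP, had 27.8, 27.5 and 28.5 FPKM in the Vector libraries. In the OE-MMP28 libraries it had 28.2, 23.6 and 19.4 FPKM, so the groups overlapped through OE-MMP28 replicate 1. The log2 fold change was -0.23 (SE 0.15, 95% interval from -0.54 to 0.090, adjusted p = 0.301). It was -0.38 without OE-MMP28 replicate 1 (adjusted p = 0.0812) and -0.10 without OE-MMP28 replicate 3 (adjusted p = 0.682). The antisense gene KLF3-AS1 covers 4.22% of the exonic bases of KLF3 and had at most 68 counts in a library, beside 2056 to 2808 counts of KLF3.

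**Figure D3:**
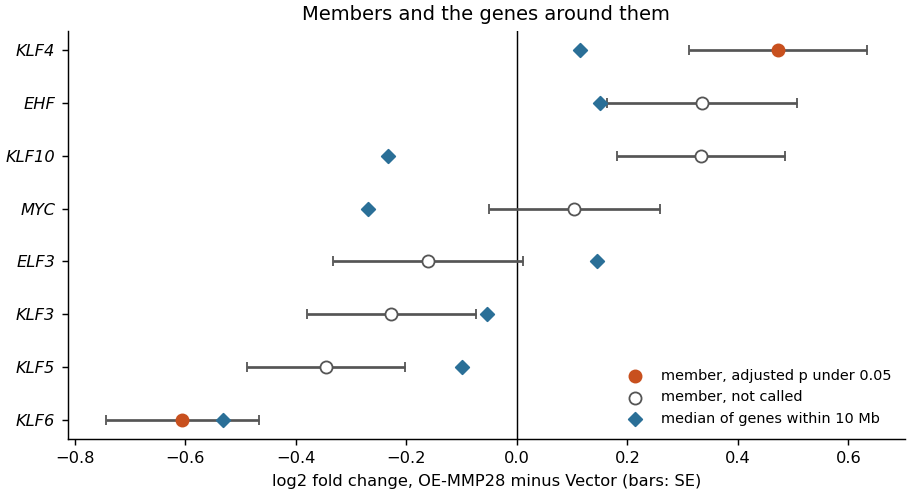
Log2 fold change of the 8 members tested (horizontal axis, OE-MMP28 minus Vector, bars are SE), with filled points for KLF4 and KLF6, which passed the test, and open points for the other 6. Blue diamonds give the median log2 fold change of the tested genes within 10 Mb on either side, which lies at -0.53 for KLF6, beside its own -0.61, and at -0.23 for KLF10, beside its own 0.33.

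The make-up of the KLF transcripts differed between the groups. Summed over all 18 KLF genes examined, the level was 308, 324 and 284 FPKM in the Vector libraries and 283, 275 and 263 FPKM in the OE-MMP28 libraries. KLF5 and KLF6 together held 66.1%, 63.2% and 66.0% of this sum in the Vector libraries, in replicate order, and 55.8%, 51.9% and 49.1% in the OE-MMP28 libraries. KLF4 and KLF10 together held 11.6%, 14.8% and 13.2% in the Vector libraries, and 19.1%, 18.8% and 20.4% in the OE-MMP28 libraries. The groups did not overlap for either share. These shares were set up after the values were seen and were not tested. The change in make-up was not confined to these 4 genes. The 12 KLF genes outside the members summed to 30.5 to 43.3 FPKM in the Vector group and 42.7 to 60.6 FPKM in the OE-MMP28 group, with overlap. KLF2 among them had 12.6 ± 5.90 FPKM against 27.4 ± 5.26 FPKM (SD, n = 3).

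**Figure D4:**
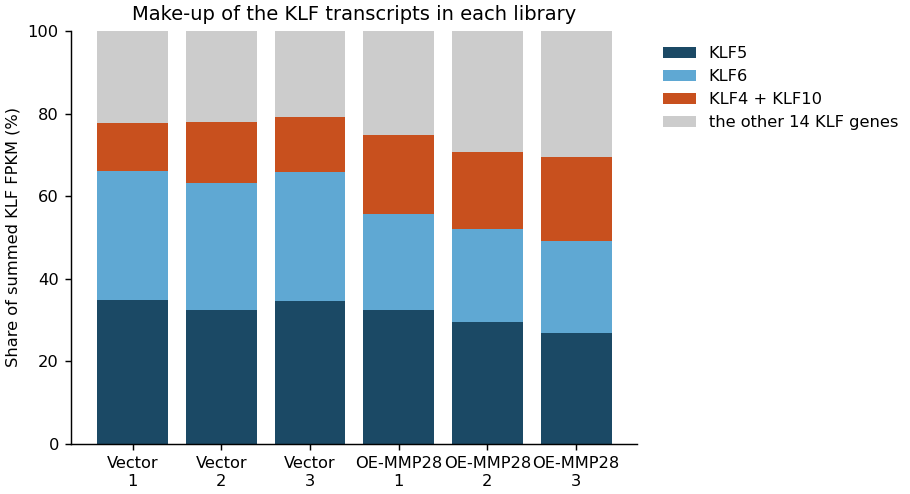
Share of each library's summed KLF FPKM (vertical axis, percent) held by KLF5, by KLF6, by KLF4 with KLF10, and by the remaining KLF genes. Bars are libraries. KLF5 with KLF6 fills between 63.2% and 66.1% of the Vector bars and between 49.1% and 55.8% of the OE-MMP28 bars.

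Close relatives were compared within each library as the difference of log2(FPKM + 0.1), in 5 pairs, with a two-sided exact permutation test between the groups. With 3 against 3 libraries that test gives no p below 0.1. KLF4 minus KLF5 was -2.43 ± 0.259 in the Vector group and -1.60 ± 0.236 in the OE-MMP28 group (SD, n = 3), without overlap, with an exact permutation p of 0.1 (adjusted p = 0.25). KLF10 minus its closest relative KLF11 was 2.27 ± 0.393 against 3.47 ± 0.283 (SD, n = 3), also without overlap, with the same exact permutation p and adjusted p. KLF6 minus KLF7 was 4.74 ± 0.193 against 4.71 ± 0.189 (SD, n = 3), a difference of -0.032 with an exact permutation p of 0.8, and its sign turned when single libraries were left out. ELF3 minus EHF was 0.62 ± 0.401 against 0.18 ± 0.554 (SD, n = 3), with overlap and an exact permutation p of 0.3. This difference of -0.44 was -0.22 without Vector replicate 2, -0.24 without OE-MMP28 replicate 1 and -0.76 without OE-MMP28 replicate 3. MYC minus MYCL was 8.79 ± 0.410 against 9.05 ± 0.294 (SD, n = 3), with overlap and an exact permutation p of 0.5, and its second term rested on at most 5 counts. With a library left out, its difference of 0.26 ranged from 0.072 without Vector replicate 3 to 0.48 without Vector replicate 1. The value was 0.14 without OE-MMP28 replicate 1 and 0.42 without OE-MMP28 replicate 3. Adding 1 or 0.01 to FPKM in place of 0.1 gave 0.12 and 0.83.

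The 12 other KLF genes were examined as a list. Of these, 7 were tested, and 2 rose while 2 fell. This is 57.1%, beside 23.4% of all genes tested, with a median log2 fold change of 0.47. KLF2, known from endothelium and lymphocytes, had 11.6, 19.0 and 7.30 FPKM in the Vector libraries and 22.6, 26.6 and 33.05 FPKM in the OE-MMP28 libraries. It rose 2.20-fold, with a log2 fold change of 1.14 (SE 0.24, adjusted p = 0.00219), and this call held in all 18 alternative fits. KLF12, a repressor, had 4, 3 and 2 counts in the Vector libraries and 49, 35 and 33 counts in the OE-MMP28 libraries. The ratio of its summed CPM was 11.6, with an exact counting interval from 5.91 to 26.0, and its adjusted p was 3.3e-05. KLF11, a TGF-beta inducible relative of KLF10, fell by 0.89 on the log2 scale (adjusted p = 0.00316), and KLF7 by 0.59 (adjusted p = 0.0226). The genes within 10 Mb of KLF11 and KLF7 had medians of -0.43 and -0.41, and with the local-median offset both calls were lost, with values of -0.45 and -0.18 and adjusted p-values of 0.133 and 0.548. The call of KLF7 was also lost without Vector replicate 2, OE-MMP28 replicate 2 or OE-MMP28 replicate 3, where its adjusted p was between 0.0528 and 0.109. KLF1, KLF8, KLF15, KLF17 and KLF18 had at most 2 counts in any library.

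Among the 9 SP genes, which share the zinc fingers of the KLF family, 5 were tested, 1 rose and none fell. This is 20%, beside 23.4% of all genes tested, and the median log2 fold change was 0.053. SP2 had 4.48 ± 0.269 FPKM against 6.30 ± 0.721 FPKM (SD, n = 3), which is 0.50 on the log2 scale (adjusted p = 0.0419). This call was kept in 5 of 18 alternative fits, and among those that left out a library only without OE-MMP28 replicate 1.

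ELF3 (ENSG00000163435, chromosome 1, 202007945 to 202017188, plus strand) had 35.1, 56.9 and 42.3 FPKM in the Vector libraries and 34.3, 40.7 and 44.1 FPKM in the OE-MMP28 libraries. The groups overlapped, and Vector replicate 2 stood highest. The log2 fold change was -0.16 (SE 0.17, 95% interval from -0.52 to 0.20, adjusted p = 0.539), and without Vector replicate 2 it was 0.047 (adjusted p = 0.880). ELF3-AS1 on the other strand and AL691482.3 on the same strand each cover 9.23% of the exonic bases of ELF3, which leaves its value uncertain as far as reads are shared. ELF3-AS1 had a log2 fold change of -0.72 (adjusted p = 0.0177), from 212 to 403 counts per library.

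EHF (ENSG00000135373, chromosome 11, 34621093 to 34661057, plus strand) had 29.02, 27.3 and 29.4 FPKM in the Vector libraries and 40.1, 42.2 and 25.1 FPKM in the OE-MMP28 libraries. OE-MMP28 replicate 3 lay below every Vector library, while the other OE-MMP28 libraries lay above them. The log2 fold change was 0.33 (SE 0.17, adjusted p = 0.168). The test was passed in 1 of 18 alternative fits, that without OE-MMP28 replicate 3, where the value was 0.53 (adjusted p = 0.0220). Without OE-MMP28 replicate 2 it was 0.18 (adjusted p = 0.595), and with the local-median offset also 0.18 (adjusted p = 0.518).

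Of the 25 other ETS genes, 17 were tested, and 2 rose while 2 fell. This is 23.5%, beside 23.4% of all genes tested, with a median log2 fold change of 0.052. ETV5, a target of ERK signaling, rose by 0.61 and ELK3, a ternary complex factor, by 0.57 on the log2 scale, with adjusted p-values of 0.00712 and 0.00746. ETV3, a repressor, fell by 0.51 (adjusted p = 0.0216). ETV7 fell from 12, 10 and 15 counts to 2, 5 and 4 counts (adjusted p = 0.0206). The genes around ETV5 had a median log2 fold change of 0.45, and with the local-median offset its value was 0.16 (adjusted p = 0.539). Without OE-MMP28 replicate 2 the list held 1 call, and without OE-MMP28 replicate 3 it held 2.

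Genes that KLF4, KLF5 or ELF3 are known to regulate in epithelia moved in both directions. Of 10, 7 were tested, 3 rose and 2 fell. This is 71.4%, beside 23.4% of all genes tested, with a median log2 fold change of 0.28. KRT19, a ductal keratin, rose from 624 ± 34.1 FPKM to 1012 ± 140 FPKM (SD, n = 3), which is 0.71 on the log2 scale (adjusted p = 0.00175). FGFBP1, a binding protein that releases fibroblast growth factors, rose by 0.77, and CCND1, which encodes cyclin D1, by 0.52 on the log2 scale. CLDN4, a tight junction claudin, fell by 0.61, and CDH1, which encodes E-cadherin, by 0.59. With the local-median offset 2 calls were left. CLDN4 had a value of -0.45 there (adjusted p = 0.0774), CDH1 one of -0.22 (adjusted p = 0.395) and CCND1 one of 0.23 (adjusted p = 0.355). The count of 5 was 2 without Vector replicate 2 or without OE-MMP28 replicate 1, and 3 without Vector replicate 3 or without OE-MMP28 replicate 2. KRT19 and CDH1 are also among the epithelial markers given above. The call of KRT19 held in all 18 alternative fits.

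Genes that respond to glucocorticoids, the hormones that induce KLF9, were examined beside it. Of 6, 5 were tested, and 3 rose while none fell. This is 60%, beside 23.4% of all genes tested (11.7% higher), with a median log2 fold change of 0.65. The log2 fold change was positive for 4 of the 5 genes and negative for 1. The groups did not overlap in FPKM for any of the 5, nor for 38.1% of all genes tested. SGK1, a kinase of salt transport, rose by 0.98, FKBP5, a co-chaperone of the glucocorticoid receptor, by 0.66 and DUSP1, a MAP kinase phosphatase, by 0.65 on the log2 scale, with adjusted p-values of 0.000591, 0.00834 and 0.00873. KLF9 itself stayed at 10 counts or fewer in every library. Without Vector replicate 3 the adjusted p of DUSP1 was 0.0839.

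**Figure D5:**
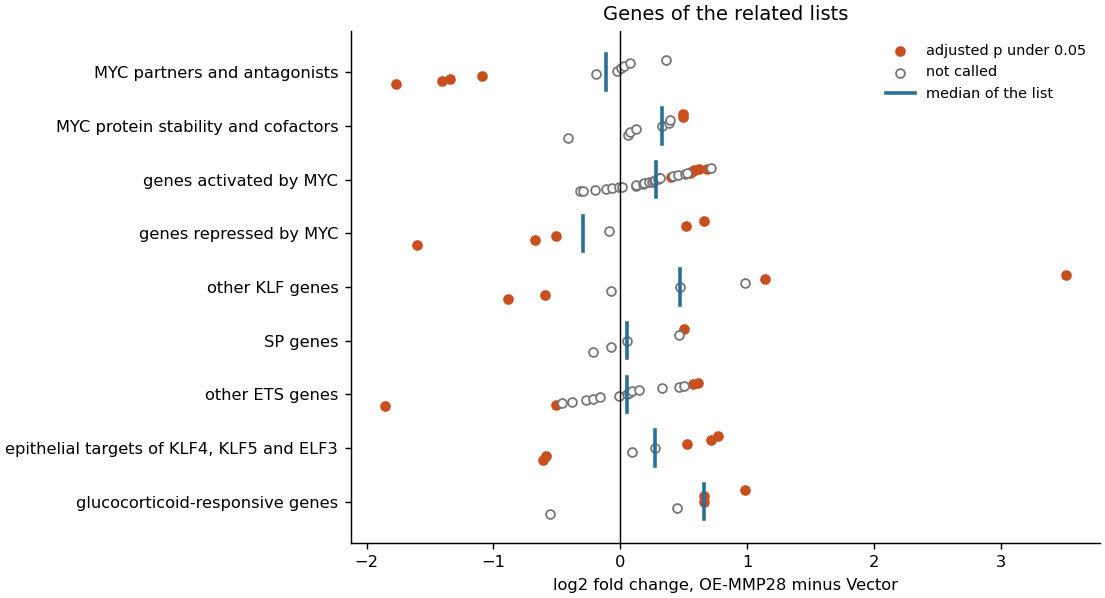
Log2 fold changes (horizontal axis, OE-MMP28 minus Vector) of the tested genes in the 9 related lists (rows). Orange points passed an adjusted p of 0.05, open points did not, and blue bars are list medians. The 4 calls among MYC partners and antagonists all lie below -1, and the point farthest to the right is KLF12, with 2 to 4 counts in the Vector libraries.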

How the data were processed

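The libraries were made with the NEBNext Ultra RNA kit from total RNA. The submitters' processing notes name HISAT2 2.0.5 and featureCounts 1.5.0-p3, without the strand setting or the treatment of reads with several matches. The authors deposited whole-number counts per gene and library, not normalized, and FPKM values computed from them, in a table that also holds their own comparison, which was not used. Of 58735 genes, 58724 had the coordinates of GENCODE release 29 (GRCh38), and 0 per-sample columns were left unmapped.

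The labels gave each library its group and replicate number. The counts were fitted with edgeR 4.0.16 (R 4.3.3) by the quasi-likelihood test on group alone, with TMM scaling and filterByExpr (minimum count 10, minimum total 15), which left 15319 genes. The p-values were adjusted over all of them by the Benjamini-Hochberg procedure. Intervals of counts cover counting error only. The study names limma, which was run as an alternative (limma 3.58.1, also voom), as was DESeq2 1.42.0. The local median of a gene is the median log2 fold change of the tested genes whose midpoints lie within 10 Mb on either side.

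The members, the lists and the tests were chosen with earlier results of these data known. The rule for named genes took all members, MMP28, and from each list up to 5 genes that rose and 5 that fell. For each member tested it also took the 2 protein-coding genes with the most similar pattern. Same-numbered libraries of the groups did not deviate together, with correlations of 0.017, 0.0080 and -0.088 across genes for numbers 1, 2 and 3.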

Additional observations from a re-analysis of the deposited data

How the results depend on the processing

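The order of levels, the shares of KLF transcripts and the ratios of MYC were computed once. Differences between close relatives were recomputed with a library left out, and with 1 or 0.01 added to FPKM in place of 0.1. Tests of genes were repeated in 18 alternative fits (17 for ETV7), of which 6 left out a library. KLF6 was called lower in 17 of the 18, with log2 fold changes from -0.66 to -0.57 in the leave-one-out fits. It lost its call only with the local-median offset. The 3579 genes called became 2325 with that offset and 2029 to 3865 with a library left out. Genes called higher numbered 1101 with the offset, and 985 to 1916 with a library left out, and genes called lower 1044 to 1949. Members called higher numbered 0 with upper-quartile factors, 0 on log2(FPKM + 1) and log2(FPKM + 0.1) in limma, 0 without mitochondrial genes, and 0 to 1 with a library left out. The 1 member called higher was EHF in place of KLF4 without OE-MMP28 replicate 3, and KLF10 in place of KLF4 with the local-median offset. Members called lower numbered 2 with upper-quartile factors (KLF5 and KLF6), 0 with the local-median offset, and 1 to 2 with a library left out.

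With a library left out, calls numbered 4 for MYC partners and antagonists, 0 to 2 for MYC protein stability and cofactors, 2 to 12 for genes activated by MYC, 2 to 4 for genes repressed by MYC, 3 to 5 for other KLF genes, 0 to 1 for SP genes, 1 to 6 for other ETS genes, 2 to 5 for epithelial targets and 2 to 4 for glucocorticoid-responsive genes. Genes acting on the MYC protein had 0 calls in both limma fits on FPKM and 1 with no filter on low counts. Genes repressed by MYC had 3 calls in limma on log2(FPKM + 1). With the local-median offset, other KLF genes had 2 calls, epithelial targets 2 and USP28 a value of -0.014. SP genes had 0 calls with upper-quartile factors, both limma fits on FPKM, no filter, at least 1 CPM in 3 libraries, the local-median offset, no mitochondrial genes or the replicate block. With the replicate block, an alternative because the libraries share only a number, the genes called numbered 3685, SP2 lost its call (SP genes: 0), and the counts of members called stayed at 1 higher and 1 lower. ELF3 ranged from -0.31 to 0.047 with a library left out, and reversed without Vector replicate 2. KLF6 minus KLF7, -0.032, became 0.071 without Vector replicate 1, 0.0029 without OE-MMP28 replicate 1 and 0.040 without OE-MMP28 replicate 2. Its range was -0.14 to 0.071 with a library left out. Adding 1 or 0.01 to FPKM in place of 0.1 gave -0.16 and -0.014. The cause of these changes was not tested. Depth limited KLF9 and MYCL, which no fit with a filter could test, and with no filter their log2 fold changes were -0.036 and -0.50.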

Other observations

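For each member tested, the 2 protein-coding genes with the most similar pattern were named by Pearson's r of log2 CPM over the 6 libraries, among 12382 genes. These values are descriptions, since the 6 points share their libraries and the group difference, and between 74 (MYC) and 869 (KLF6) genes exceeded an r of 0.9. MYC was closest to YKT6 (r = 0.996) and BSCL2 (r = 0.994). KLF4 was closest to POU2F3 (r = 0.994), which encodes the tuft cell factor, and TNFAIP2 (r = 0.991), which had log2 fold changes of 1.63 and 0.86. KLF6 was closest to MAPK13 (r = 0.999), which encodes the kinase p38 delta and had a log2 fold change of -2.52, and HERPUD1 (r = 0.996). KLF5 was closest to CHD2 and PATJ (r = 0.998 and 0.997), KLF10 to ACSM3 and NHS (0.997 and 0.992), and KLF3 to HELZ and FBXO48 (0.992 and 0.989). ELF3 was closest to OBSL1 and C1QTNF1 (0.997 and 0.994), and EHF to ZNF254 and HOOK1 (0.995 and 0.987).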
